A study of Mus musculus with 6 samples.

Results

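The insulin-like growth factor (IGF) system was followed here through 10 genes of cumulus granulosa cells, the somatic cells that surround the mouse oocyte. The members are the ligands Igf1 and Igf2, the receptors Igf1r, Igf2r and Insr, and the binding proteins Igfbp2, Igfbp3, Igfbp4, Igfbp5 and Igfbp7. They were taken by gene symbol from the authors' deposited table, where all 10 were found among 24982 rows and all 10 were among the 14835 genes tested. The cells came from Kun-Ming mice and gave 3 libraries labelled control and 3 labelled Atg5-KD, numbered 2, 3 and 4 in each group. The protocol names transfection of short hairpin RNAs against Atg5, a gene needed to build autophagosomes. What the control cells received and how old the mice were is not stated in the sources. The question was which members of the system differed in poly(A) RNA between both groups. No label ties the libraries to separate cultures or animals, so the p-values measure the spread between libraries, which may be technical.

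In granulosa cells IGF1 binds the receptor tyrosine kinase IGF1R, which signals through insulin receptor substrates, PI3 kinase and AKT and strengthens the response to follicle-stimulating hormone (FSH). The IGF2 receptor carries IGF2 to lysosomes, and the insulin receptor can also bind IGF2. Binding proteins hold IGFs away from the receptors, and proteases such as PAPP-A, encoded by Pappa, release them by cutting binding proteins, IGFBP4 above all.

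The genes of the system lie on 7 mouse chromosomes in the RefSeq annotation of GRCm38.p6. Igfbp2 (chr1:72824480-72852474, plus strand) and Igfbp5 (chr1:72858065-72874865, minus strand) are neighbours with 5.59 kb between them, and they point towards each other. Igf1 lies at chr10:87858265-87937047, Igf2 at chr7:142650768-142666816 with H19 72.6 kb away, and Igf1r at chr7:67952257-68233668. Igf2r lies at chr17:12682406-12769706, Insr at chr8:3150922-3279649, Igfbp3 at chr11:7206086-7215498, Igfbp4 at chr11:99040005-99052655 and Igfbp7 at chr5:77349240-77408045.

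Promoter sequences are shown for the 3 binding proteins that were lower in the libraries labelled Atg5-KD, and for Igfbp3, the binding protein with a positive fold change. Each is the 250 bases before a RefSeq start site of GRCm38.p6, read 5′ to 3′ on the gene's strand, and none of the windows holds an annotated exon base. The windows are chr1:72824230-72824479 (plus) for Igfbp2, chr11:99040994-99041243 (plus) for Igfbp4, chr5:77408046-77408295 (minus) for Igfbp7 and chr11:7213924-7214173 (minus) for Igfbp3. A further Igfbp2 start site, with a window at chr1:72825137-72825386 that includes 65 exon bases, is not shown for that reason; it held 0 of the motifs below and 56.4% G and C. The Igfbp4 and Igfbp3 windows lie inside the gene spans given above. The start sites used for them, 99041244 and 7213923, are thus not at the ends of these spans. Capitals mark the motifs found.
Igfbp2: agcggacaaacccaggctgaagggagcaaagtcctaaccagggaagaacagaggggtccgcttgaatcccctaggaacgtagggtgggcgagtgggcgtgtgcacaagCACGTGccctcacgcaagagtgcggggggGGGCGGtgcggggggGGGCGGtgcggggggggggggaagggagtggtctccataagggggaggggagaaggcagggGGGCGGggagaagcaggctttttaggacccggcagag
Igfbp4: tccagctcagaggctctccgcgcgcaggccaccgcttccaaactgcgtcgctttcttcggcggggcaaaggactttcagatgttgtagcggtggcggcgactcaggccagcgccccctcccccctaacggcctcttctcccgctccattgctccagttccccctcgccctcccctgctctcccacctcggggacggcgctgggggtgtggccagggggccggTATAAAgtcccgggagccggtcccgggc
Igfbp7: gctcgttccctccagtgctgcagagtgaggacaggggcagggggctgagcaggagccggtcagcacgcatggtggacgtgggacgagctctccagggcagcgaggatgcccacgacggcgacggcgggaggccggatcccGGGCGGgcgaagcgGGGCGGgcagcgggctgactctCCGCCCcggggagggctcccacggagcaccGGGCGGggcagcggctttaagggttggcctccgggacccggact
Igfbp3: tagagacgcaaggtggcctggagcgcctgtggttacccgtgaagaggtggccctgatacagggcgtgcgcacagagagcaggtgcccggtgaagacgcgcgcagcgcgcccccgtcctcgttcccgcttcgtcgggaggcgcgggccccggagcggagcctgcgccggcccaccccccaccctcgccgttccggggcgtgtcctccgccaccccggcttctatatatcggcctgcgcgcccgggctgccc
The search covered both strands and 7 motifs, and its background was 32851 RefSeq promoters of the same length. GGGCGG, the GC box, was held by 32.7% of them and TATAAA, the TATA box, by 12.4%. CCAAT, the CCAAT box, was held by 33.8% and TGTTTAC, a FOXO site, by 3.17%. TGACGTCA, the cAMP response element, was held by 1.55%, CACGTG, an E-box, by 6.02% and TTCNNNGAA, a STAT site, by 7.02%. The Igfbp2 window held 3 GC boxes and 1 E-box, the Igfbp7 window 4 GC boxes, the Igfbp4 window 1 TATA box and the Igfbp3 window 0 of these motifs. No motif was found in all 3 windows of the lower binding proteins. All 4 windows were rich in G and C, at 67.2% for Igfbp2, 69.2% for Igfbp4, 74.0% for Igfbp7 and 73.2% for Igfbp3, against a median of 52.4% over all promoters. The windows of Igfbp7 and Igfbp3, whose fold changes differ in sign, had nearly the same base composition. Igfbp3 was not called, and a link between promoter composition and fold change was not tested. A match to these letters is a description and not a tested binding site.

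The deposited values are a comparison of both groups, with no column per library. Counts per library were recovered for 6 members, as the whole numbers that give back the deposited base mean and whose fitted log2 fold change lies nearest to the deposited one. A set was accepted where that distance was under 1e-06 and the next nearest set was at least 100 times farther. The next set of Igf1 was 1.83e-07 away and that of Igf2r 2.70e-07, inside the first limit, so these 2 members rest on the ratio of the distances. Libraries were assigned to a group by the sign of the fold change in rows holding a single read. They could not be assigned to a label number, so they are called a, b and c in falling order of size factor. The size factors gave an estimated 16500000 to 17900000 counted reads per control library and 11300000 to 12900000 per library labelled Atg5-KD, and the ribosomal RNA locus Rn45s took 1.17% and 17.9% of the estimated reads. That a fold change above 0 means higher in Atg5-KD rests on the table's name, which puts that group first. The group of each recovered library rests on the same name, so counts per library are no separate check of direction. Atg5 gives no check of the direction. Its recovered normalized counts were 350, 462 and 430 in control libraries. They were 386, 408 and 396 in those labelled Atg5-KD, inside the control range. The authors' deposited table gave Atg5 a log2 fold change of -0.06 ± 0.14 (SE; Wald adjusted p = 0.822), with a 95% interval from -0.34 to 0.21. A reduction of Atg5 RNA was thus not established in these libraries. Among the recovered genes of all lists, control library a was the highest of its group in 63 of 127 and Atg5-KD library b in 63, against 47 and 43 of the 119 rows used to check the recovery. Markers of granulosa cells were plentiful in the authors' deposited table, with base means of 30063 for Inha and 1816 for Foxl2, while Cyp19a1 (2.34), Amh (6.07) and Fshr (93.4) were low. Of 13 tested granulosa markers 3 were higher and 5 lower in the libraries labelled Atg5-KD, with a median log2 fold change of -0.14.

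Of the 10 members, 1 was higher and 4 were lower in the libraries labelled Atg5-KD at a Wald adjusted p under 0.05 in the authors' deposited table, and 5 were not called. Over all tested genes 20.9% were called, 10.4% higher and 10.5% lower. The called members were Insr (higher) and Igf1, Igfbp2, Igfbp4 and Igfbp7 (lower). The median log2 fold change of the 10 members was -0.37, against 0.00 over all tested genes. In the recovered counts, both groups did not overlap for 5 of 6 members, 4 lower and 1 higher. In 119 table rows of base mean 20 to 300 recovered the same way, 36.1% did not overlap, 18.5% higher and 17.6% lower, at lower read numbers than most members have.

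**Figure D1:**
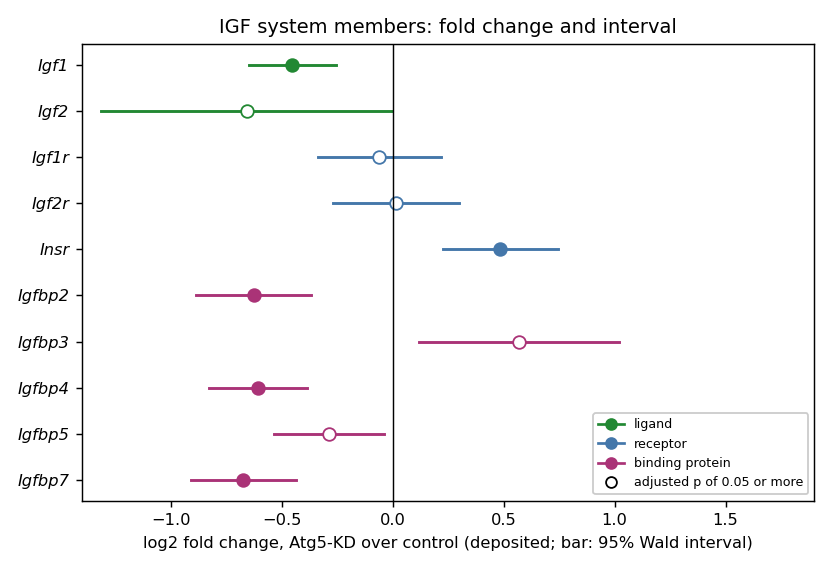
Log2 fold change of each IGF system member, Atg5-KD over control, in the authors' deposited table (point) with its 95% Wald interval (bar). Colours give the role, and filled points have an adjusted p under 0.05. Igf1, Igfbp2, Igfbp4 and Igfbp7 lie left of 0 and Insr right of it, while the points of Igf1r and Igf2r sit at -0.06 and 0.02.

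The main ligand fell. Igf1, the IGF that granulosa cells of growing mouse follicles make, had 3064, 3051 and 2672 normalized counts in the control libraries and 2065, 2306 and 2054 in those labelled Atg5-KD. Every library labelled Atg5-KD was below every control library. The authors' deposited table gave a log2 fold change of -0.45 ± 0.10 (SE; Wald adjusted p = 9.16e-05), a change of -26.9%. Behind these values stood 1443 to 4198 reads per library, which leaves little counting error. Scaled to all reads the log2 fold change was -0.75, and with its trend over GC content and exon length removed it was -0.74.

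Igf2, an imprinted ligand better known from the fetus, was sparse. Its recovered normalized counts were 48.2, 40.3 and 56.0 in control libraries and 34.8, 28.1 and 28.5 in those labelled Atg5-KD, from 20 to 71 reads each. The groups did not overlap, and the authors' deposited table gave a log2 fold change of -0.66 ± 0.34 (SE) that was not called (Wald adjusted p = 0.158). At its standard error Igf2 would have been called only from a 1.81-fold difference, so a difference of the size of Igf1's would not have passed. Igf2 shares 62.8% of its exon bases with the gene model Gm49394 on the same strand and 98 bases with the antisense gene Igf2os, and whether reads were counted by strand is not stated.

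**Figure D2:**
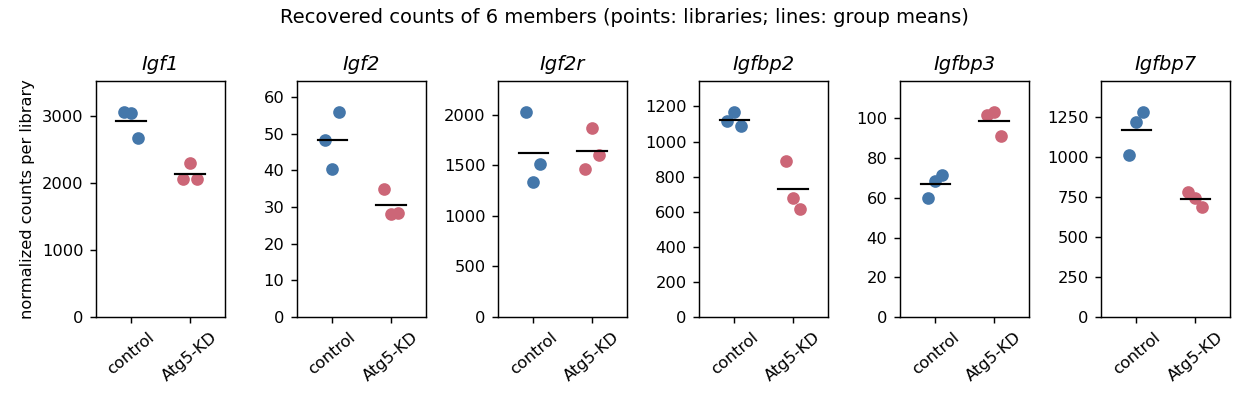
Recovered normalized counts of 6 members, with 1 point per library and a line at each group mean (vertical axes start at 0 and differ between panels). Groups are apart for Igf1, Igf2, Igfbp2, Igfbp3 and Igfbp7 and overlap for Igf2r.

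Of the receptors, 1 was higher and 2 were not called. Igf1r, which carries the IGF1 signal, had an estimated 3712 normalized counts in control libraries and 3561 in those labelled Atg5-KD. The authors' deposited table gave a log2 fold change of -0.06 ± 0.14 (SE; Wald adjusted p = 0.825), with a 95% interval from -0.34 to 0.22. A change of the size of Igf1's, -0.45, lies outside that interval, although the difference between both genes was not tested.

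Igf2r, the clearance receptor for IGF2, had 2028, 1337 and 1508 normalized counts in control libraries and 1464, 1863 and 1601 in those labelled Atg5-KD. The groups overlapped almost fully, and the highest library of all was a control library. The authors' deposited table gave 0.02 ± 0.14 (SE; Wald adjusted p = 0.959) on the log2 scale, with a 95% interval from -0.27 to 0.30.

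Insr, the insulin receptor, was the called rise. Its estimated means were 1663 normalized counts in control libraries and 2327 in those labelled Atg5-KD, a 1.40-fold difference. The authors' deposited table gave a log2 fold change of 0.48 ± 0.13 (SE; Wald adjusted p = 0.00253). More than 1 set of whole counts gave back the deposited values of Insr, so its libraries are not shown. Insulin itself was not detected: Ins1 and Ins2 had a base mean of 0, which allows up to 2.19 to 4.27 normalized counts per library, the worth of 3 reads, for counting error only. Insr kept its sign but not its call when fold changes were scaled to all reads (log2 0.19). The same held when their trend with GC content and exon length was removed (log2 0.34).

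Of the 5 binding proteins 3 fell, and per kb of exon Igfbp5 and Igfbp4 were the most abundant of all 10 members. Igfbp4, which mainly restrains IGF action and is the main substrate of PAPP-A, had estimated means of 10385 normalized counts in control libraries and 6820 in those labelled Atg5-KD. The authors' deposited table gave a log2 fold change of -0.61 ± 0.11 (SE; Wald adjusted p = 1.97e-06), a 1.52-fold lower level. The difference in estimated means, -3565 normalized counts, was the largest of all 10 members.

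Igfbp7, a secreted relative that binds IGFs weakly and is also made by vessel and stromal cells, had 1011, 1217 and 1280 normalized counts in control libraries and 777, 740 and 683 in those labelled Atg5-KD. The groups were well apart. The authors' deposited table gave -0.67 ± 0.12 (SE) on the log2 scale, a 1.59-fold lower level and the smallest Wald adjusted p of the members, 6.59e-07. Of its exon bases, 85 overlap Polr2b on the opposite strand, and Polr2b had a log2 fold change of 0.10 in the authors' deposited table.

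Igfbp2, a binding protein that prefers IGF2, had 1117, 1169 and 1088 normalized counts in control libraries and 890, 678 and 618 in those labelled Atg5-KD. The control libraries lay close together, and the libraries labelled Atg5-KD were spread more widely and all below them. The authors' deposited table gave a log2 fold change of -0.63 ± 0.13 (SE; Wald adjusted p = 4.26e-05), 1.54-fold lower. It shrank to -0.33 and was not called when the trend with GC content and exon length was removed. Igfbp2 has the most GC-rich transcript of the members, at 62.1%.

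Igfbp5, the neighbour of Igfbp2 and the most abundant member, was not called. Its estimated means were 14854 normalized counts in control libraries and 12179 in those labelled Atg5-KD, a change of -18.0%. The authors' deposited table gave a log2 fold change of -0.29 ± 0.13 (SE; Wald adjusted p = 0.0932), and a 1.25-fold difference would have been needed for a call.

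Igfbp3, the main carrier of IGFs in serum, stood against the other binding proteins. It had 59.9, 68.7 and 71.7 normalized counts in control libraries and 102, 103 and 91.1 in those labelled Atg5-KD. All 3 libraries labelled Atg5-KD were above all 3 controls. The authors' deposited table gave a log2 fold change of 0.57 ± 0.23 (SE), 1.48-fold higher, and it missed the call (Wald adjusted p = 0.0613), at 64 to 92 reads per library. With the trend of GC content and exon length removed it was 0.65 and called. Scaled to all reads it was 0.27 and not called.

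Levels of different genes were compared per kb of exon, counting all annotated exons of a gene. The transcripts expressed may be shorter, so the order of genes at close levels depends on this choice. In control the order, in estimated normalized counts per kb, was Igfbp5 (2473), Igfbp4 (2352), Igfbp7 (967), Igfbp2 (609), Igf1 (296), Igf1r (221), Igf2r (175), Insr (121), Igfbp3 (21.3) and Igf2 (8.41). The order was the same in the libraries labelled Atg5-KD, but the middle of it drew together. There Igf1 (216 per kb) and Igf1r (212) differed by less than the spread of the Igf1 libraries, 207 to 233. Insr stood at 169 per kb, inside the range of the Igf2r libraries, 157 to 200. In control all Igf1 libraries, 270 to 309 per kb, lay above the highest Igf2r library, 218. The same held in the libraries labelled Atg5-KD, where the lowest Igf1 library, 207, lay above the highest Igf2r library, 200. Igfbp7 (836 to 1059 per kb) and Igfbp2 (589 to 633) did not overlap in control, nor in the libraries labelled Atg5-KD (565 to 642 against 334 to 482).

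**Figure D3:**
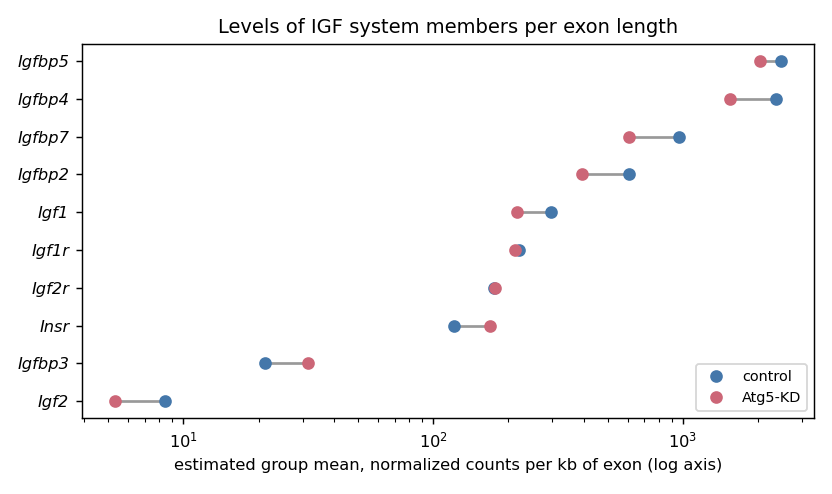
Estimated group means of the 10 members in normalized counts per kb of exon (log axis), control and Atg5-KD joined by a line. Igfbp5 and Igfbp4 are the highest and Igf2 the lowest in both groups, and Igf1, Igf1r, Igf2r and Insr lie between 121 and 296 per kb.

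Sums over the members of a role were taken from estimated means and have no test. The 5 binding proteins summed to 27599 normalized counts in control libraries and 20560 in those labelled Atg5-KD, a log2 ratio of -0.42. Both ligands together went from 2977 to 2172 (log2 ratio -0.45), and the 3 receptors from 7000 to 7531 (log2 ratio 0.11). The ligand sum is nearly all Igf1, and the binding protein sum is mostly Igfbp4 and Igfbp5. Within the binding proteins, Igfbp5 made up 53.8% of counts in control libraries and 59.2% in the libraries labelled Atg5-KD, and Igfbp4 37.6% and 33.2%. Igfbp3 made up 0.242% and 0.481%.

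Genes that act on the members were counted from lists. Of 9 other IGF family genes, 3 were tested, and Igfbp6, an IGF2-preferring binding protein, was the single call. It had 199, 255 and 230 normalized counts in control libraries and 118, 152 and 135 in those labelled Atg5-KD, with no overlap. The authors' deposited table gave Igfbp6 a log2 fold change of -0.76 ± 0.18 (SE; Wald adjusted p = 4.25e-04). Igfbp1 (base mean 0.25), Igfbpl1 (0.33) and Igfals (1.46), which builds the serum IGF complex, were near 0 in the authors' deposited table.

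Of 6 tested genes for binding protein proteases and their inhibitors, 1 was higher and 1 lower. Pappa had 131, 91.8 and 119 normalized counts in control libraries and 254, 236 and 344 in those labelled Atg5-KD, so the lowest of the latter was well above the highest control. The authors' deposited table gave a log2 fold change of 1.28 ± 0.20 (SE; Wald adjusted p = 2.80e-09). The RNA of this protease was thus higher where that of its substrate Igfbp4 was lower. Htra1, a secreted serine protease that can cut IGFBP5, had a base mean of 5238 in the authors' deposited table and a log2 fold change of -0.66 ± 0.10 (SE; Wald adjusted p = 5.56e-10). Stc2, an inhibitor of PAPP-A, had 276 to 278 normalized counts in control libraries and 235 to 242 in the libraries labelled Atg5-KD. The groups of Stc2 did not overlap, but its log2 fold change of -0.21 in the authors' deposited table was not called (Wald adjusted p = 0.318). Stc2 stands outside the rule for named genes and was chosen after its values were seen.

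Of 4 tested genes for IGF2 mRNA-binding proteins and the Igf2 locus, 1 was higher and 1 lower. H19, the noncoding RNA imprinted oppositely to Igf2, had 55.5, 70.2 and 70.2 normalized counts in control libraries and 32.3, 33.2 and 38.4 in those labelled Atg5-KD. Both genes of the locus were therefore lower in every library labelled Atg5-KD, with log2 fold changes in the authors' deposited table of -0.92 ± 0.30 (SE; Wald adjusted p = 0.0158) for H19 and the uncalled -0.66 for Igf2. Igf2bp3, which binds IGF2 mRNA, had 24.1, 12.7 and 30.7 normalized counts in control libraries and 44.7, 39.6 and 55.5 in those labelled Atg5-KD. The authors' deposited table gave Igf2bp3 1.05 ± 0.38 (SE; Wald adjusted p = 0.0320). For Igf2bp2 the authors' deposited table gave -0.26 (Wald adjusted p = 0.393), which was not called. With the GC and length trend removed, neither H19 (log2 -0.76) nor Igf2bp3 (log2 0.94) was called, and scaled to all reads Igf2bp3 (log2 0.75) was not called.

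Below the receptors, 4 of 19 tested adaptors and negative regulators were lower and 0 were higher, with a median log2 fold change of -0.18. Irs2, a docking protein for IGF1R and the insulin receptor, had a log2 fold change of -0.88 ± 0.29 (SE; Wald adjusted p = 0.0159) in the authors' deposited table. Grb10, an adaptor that restrains both receptors, had 853, 731 and 797 normalized counts in control libraries and 646, 620 and 541 in those labelled Atg5-KD. The authors' deposited table gave Grb10 -0.40 ± 0.12 (SE; Wald adjusted p = 0.00712). Enpp1, which inhibits the insulin receptor, had -0.63 ± 0.23 (SE; Wald adjusted p = 0.0287) in the authors' deposited table. The 4 lower genes were Irs2, Grb10, Enpp1 and the phosphatase gene Ptpn1. Ptpn1 had -0.29 in the authors' deposited table and was named outside the rule. Rack1, the gene of highest base mean in the list, had -0.24 and was not called (Wald adjusted p = 0.0721) in the authors' deposited table. Scaled to all reads, 15 of the 19 were lower, against 38.7% of all tested genes.

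In the PI3K-AKT-mTOR chain 7 of 26 genes were higher and 4 lower, with a median log2 fold change of 0.06. Rictor, a subunit of mTOR complex 2, had 992, 594 and 674 normalized counts in control libraries and 980, 1286 and 1195 in those labelled Atg5-KD, so the groups overlapped. The authors' deposited table gave Rictor 0.61 ± 0.17 (SE; Wald adjusted p = 0.00215), and leaving out a library gave log2 ratios of 0.47 to 0.86. Eif4ebp1, the translation repressor that mTOR complex 1 inactivates, fell by 0.54 ± 0.10 (SE; Wald adjusted p = 6.98e-07) in the authors' deposited table. Pik3r2, a regulatory PI3 kinase subunit, had -0.44 ± 0.10 (SE; Wald adjusted p = 3.82e-04), while Pik3r1, the more abundant one, had -0.13 (Wald adjusted p = 0.471) in the authors' deposited table. The calls of this list changed with the setting: 0 of 26 were higher and 12 lower when scaled to all reads, where 38.7% of all tested genes were lower, and 3 were higher and 1 lower with the GC and length trend removed, where 14.1% of all were called. Rictor and Pik3r2 were not called with that trend removed, at log2 0.34 and -0.13.

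FOXO transcription factors are held out of the nucleus by AKT when IGF1R signals. Of 17 listed factors and induced genes, 3 were higher and 6 lower (median log2 fold change -0.13). The authors' deposited table gave Foxo1 a log2 fold change of -0.98 ± 0.14 (SE; Wald adjusted p = 2.53e-10). Txnip, a FOXO-induced inhibitor of glucose uptake, had -0.77 ± 0.12 (SE; Wald adjusted p = 2.25e-09) and Trp53inp1, also a p53 target, 0.62 ± 0.09 (SE; Wald adjusted p = 1.97e-09) in the authors' deposited table. Cited2 had -0.17 (Wald adjusted p = 0.162) there. Called genes of this list lay in both directions.

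Genes of FSH action, which IGF1 strengthens, also moved in both directions, 7 of 16 tested being higher and 6 lower with a median log2 fold change of 0.22. Lhcgr, the receptor for luteinizing hormone, had 51.8, 49.3 and 52.8 normalized counts in control libraries and 162, 207 and 420 in those labelled Atg5-KD. The authors' deposited table gave Lhcgr 2.35 ± 0.28 (SE; Wald adjusted p = 6.00e-15). Star, which moves cholesterol into mitochondria, had 1.42 ± 0.14 (SE; Wald adjusted p = 5.54e-22) and Cyp11a1, which makes pregnenolone, 1.12 ± 0.12 (SE; Wald adjusted p = 4.43e-19) in the authors' deposited table. Fshr itself had 82.5, 80.6 and 73.3 normalized counts in control libraries and 142, 84.2 and 98.2 in those labelled Atg5-KD, and was not called (log2 0.46, Wald adjusted p = 0.175, in the authors' deposited table). Fshr stands outside the rule for named genes and was chosen as the receptor that FSH acts through.

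**Figure D4:**
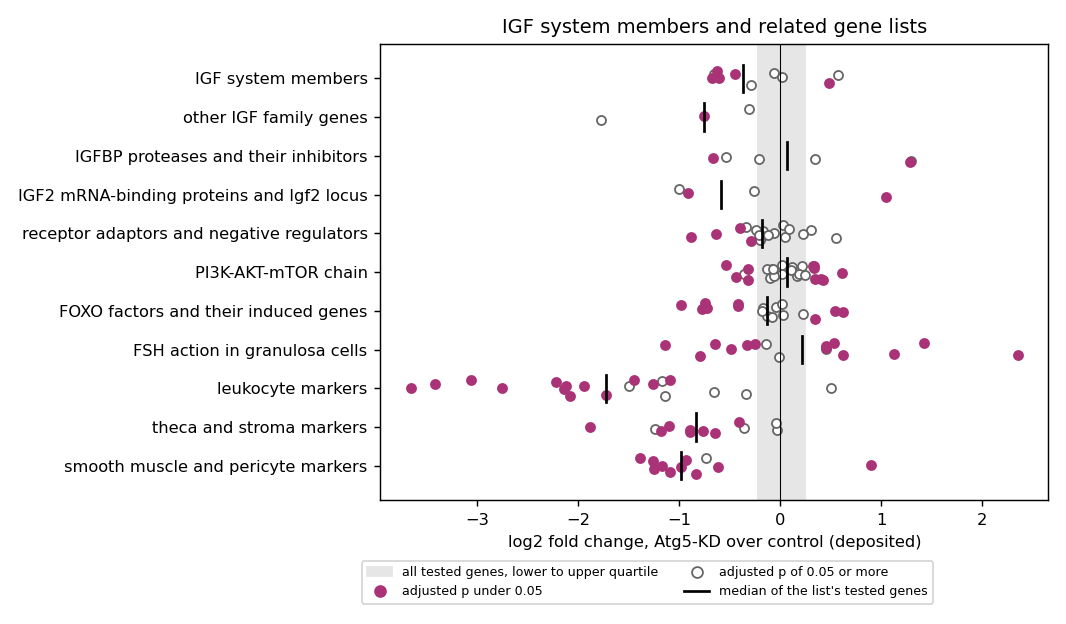
Log2 fold change of each tested gene in the authors' deposited table, by list (points, filled where the adjusted p is under 0.05), with the list's median as a vertical line. The grey band runs from the lower to the upper quartile of all tested genes, -0.22 to 0.25. The marker lists of leukocytes, theca and stroma, and smooth muscle lie mostly left of that band. Not drawn are granulosa markers, with 3 higher and 5 lower, and endothelium, oocyte and surface epithelium markers, each with 0 calls.

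Markers of leukocytes, theca and stroma, and smooth muscle and pericytes were mostly lower in the libraries labelled Atg5-KD. Of 19 tested leukocyte markers 13 were lower and 0 higher, with a median log2 fold change of -1.72, and the summed normalized counts of 19 recovered markers ran from 1010 to 1259 in control libraries and from 289 to 496 in the libraries labelled Atg5-KD. Of 12 tested theca and stroma markers 8 were lower and 0 higher (median -0.83), with sums over 10 recovered markers of 2424 to 2580 in control libraries and 1661 to 2081 in the libraries labelled Atg5-KD. Of 11 tested smooth muscle and pericyte markers 9 were lower and 1 higher (median -0.98), with sums over 9 of 2628 to 2934 and 1503 to 1635. Among defining markers, Cyp17a1 of theca cells was near 0 (base mean 0.13 in the authors' deposited table). Lyz2 of macrophages (906) and Acta2 of smooth muscle (4426) were well above it, but each had the highest base mean of its list. Of 20 listed leukocyte markers only 6 had a base mean of at least 50, and of 12 smooth muscle and pericyte markers 10 had. Endothelium markers had 0 calls in 9 tested genes (median -0.38), oocyte markers 0 in 7 (median 0.24) and surface epithelium markers 0 in 7 (median -0.08). Only 4 endothelium and 0 oocyte markers had a base mean of at least 50. At such low counts 0 calls does not mean that these markers were unchanged. In bulk RNA, fewer cells of a type and less RNA per cell cannot be told apart. The part of these cells in the values of Igf1, Igfbp2, Igfbp4 and Igfbp7 was not tested.

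Scaling reversed the sign of 1 member, Igf2r. Relative to all reads, which shifts every fold change by -0.30, 0 members were higher and 7 lower, where 42.3% of all tested genes were called, 3.60% higher and 38.7% lower. Igf1r (log2 -0.36), Igf2 (-0.96) and Igfbp5 (-0.59) were then called lower, and Igf2r had a negative fold change, -0.28. Relative to all reads without the largest row, Rn45s, the shift was only -0.03. In that setting 1 member was higher and 4 lower, where 1371 of 14835 tested genes were higher and 1817 lower. Igf1, Igfbp4 and Igfbp7 were called lower under each of the 4 scalings and trends drawn in the plot of settings, and Igfbp2 under 3 of them. These 4 include the deposited values themselves. Centring subtracts only 0.0042 from those, so it nearly had to give the same calls. Centring on the median gene left 1 member higher and 4 lower, where 21.0% of tested genes were called, 10.2% higher and 10.8% lower. Removing the GC and length trend left 1 higher (Igfbp3) and 3 lower (Igf1, Igfbp4 and Igfbp7), where 14.1% were called, 6.76% higher and 7.38% lower. Under Holm adjustment 0 members were higher and 3 lower (Igfbp2, Igfbp4 and Igfbp7), where 5.51% of genes were called, 2.86% higher and 2.64% lower. Against a 1.2-fold limit 0 were higher and 2 lower (Igfbp4 and Igfbp7), where 5.24% were called, 2.77% higher and 2.47% lower.

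**Figure D5:**
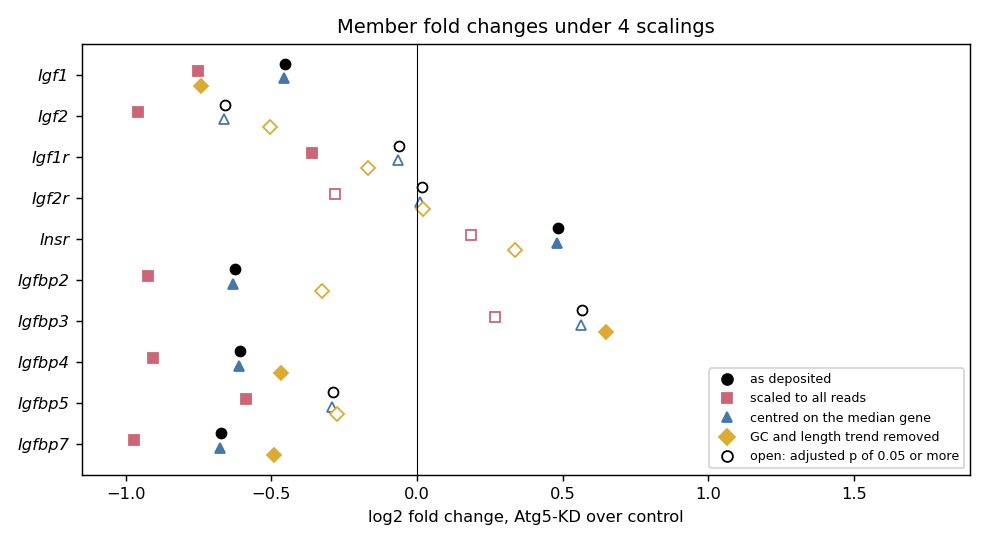
Log2 fold change of the 10 members as deposited, scaled to all reads, centred on the median tested gene, and with the trend of GC content and length removed (filled where the adjusted p is under 0.05). Igf1, Igfbp4 and Igfbp7 stay filled and left of 0 in all 4. Insr stays right of 0 and is filled in 2, as deposited and centred on the median gene, which nearly coincide.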

How the data were processed

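Transcripts were measured by paired-end sequencing of poly(A) RNA in 6 libraries, 3 per group. Tools listed by the submitters in their processing notes, without role or order, are DESeq2 1.30.1, featureCounts 1.6.2, STAR and StringTie 2.1.4, with build mm10. The only file used was the authors' deposited results table. Its base mean is a signal, the mean of size-factor normalized counts, per the file headers. Its log2 fold change and SE are deposited on the log2 scale, and the authors also deposited the Wald statistic, a score. The p-value and adjusted p-value were deposited too; the adjusted values equal Benjamini-Hochberg over the 14835 tested genes (0 rows differed at a tolerance of 1e-06). The quasi-likelihood test planned for counts per library was not run, because 0 columns hold values per library.

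A gene was called at adjusted p under 0.05. Group means were estimated from base mean and fold change. Whole counts per library were recovered from the single-read steps of low rows: 119 of 119 check rows gave an accepted set (limits in the text), as did 6 of 10 members. On counts simulated at the levels of these 6, with each gene's own dispersion, 56 of 60 were returned right, 0 wrong and 4 as unclear; at a dispersion of 0.02, the setting tried first, 47 were right, 0 wrong and 3 unclear, and 10 for Igf1 were too large to search. The simulated fold changes came from the same fit that the recovery uses. Their added error was smaller than the distances of the accepted sets of Igf2 (2.35e-08), Igfbp3 (2.72e-09) and Igfbp7 (4.03e-09). For these members the simulation was thus easier than the data. Igf1r, Igfbp4 and Igfbp5 were too large to search. Exon length and GC content came from GENCODE M21 for 98.7% of tested genes. Named genes are the members, Atg5, and from each of 14 other lists (181 genes) up to 3 called genes of smallest adjusted p and the one of highest base mean; Stc2, Fshr, Ptpn1, Polr2b, Rn45s, Gm49394, Igf2os, the near-absent genes (Igfbp1, Igfbpl1, Igfals, Ins1, Ins2, Cyp17a1), and the markers Amh, Cyp19a1, Inha and Foxl2 stand outside this rule and were named after their values were seen; members and lists were chosen with earlier results of these data known, and a few marker genes the rule selects are described only through their list. Python 3.11.15, numpy 2.4.6, pandas 2.3.3 and scipy 1.17.1 were used. Alternatives covered scaling, filters, adjustment, a 1.2-fold limit and the GC and length trend.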

Additional observations from a re-analysis of the deposited data

How the results depend on the processing

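No paired analysis was possible because the table pools the libraries and the recovered counts cannot be matched to label numbers, and the planned fits without each library were not run for the same reason. Of 79 member values under 8 alternatives, 65 kept direction and call. Part of this was fixed in advance. Adjustment over all rows, the base mean filter, Holm adjustment and the 1.2-fold limit reuse the deposited fold change, so direction could not differ. Holm adjustment and the 1.2-fold limit can only remove calls, and centring subtracts only 0.0042 from each fold change. Scaled to all reads, Igf2 (log2 -0.96), Igf1r (-0.36) and Igfbp5 (-0.59) became called, Insr (0.19) lost its call, Igf2r turned to -0.28, and 0 members were higher and 7 lower. All reads without the largest row turned Igf2r to -0.015 and left 1 member higher and 4 lower, as deposited. Under Holm adjustment Igf1 (-0.45) and Insr (0.48) lost their calls and 0 members were higher. Against a 1.2-fold limit Igf1 (-0.45), Insr (0.48) and Igfbp2 (-0.63) lost theirs, leaving 0 higher and 2 lower. With the GC and length trend removed, Insr (0.34) and Igfbp2 (-0.33) lost their calls, Igfbp3 (0.65) gained one and Igf1 moved to -0.74; the cause was not tested. Over all genes, 6269 were called when scaled to all reads, 817 under Holm, 778 against the 1.2-fold limit and 2071 with the trend removed, against 3100. On recovered counts, a choice made after seeing the data, leaving out each library gave log2 ratios of -0.51 to -0.42 for Igf1, -0.77 to -0.54 for Igf2, -0.80 to -0.52 for Igfbp2, 0.49 to 0.62 for Igfbp3, -0.77 to -0.60 for Igfbp7 and -0.11 to 0.21 for Igf2r, which was negative without control b (-0.11), control c (-0.03) or Atg5-KD b (-0.08). The fewest reads per library stood behind Igf2, 20 to 71, and Igfbp3, 64 to 92.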
